A study of Sus scrofa with 24 samples.

Results

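The LD muscle (longissimus dorsi, the long muscle of the back) of newborn male pigs was compared between pure Iberian animals (IB) and Iberian x Duroc crossbred animals (IBxDU). The comparison used every newborn library of the deposited table, 6 IB and 6 IBxDU, 1 animal each, which is 12 of its 24 libraries. The labels give the age as postnatal day 1 and the paper as birth. The other 12 libraries come from 6 IB and 6 IBxDU males at 4 months, whose values are set beside the newborn ones at the end. Both types were born to Iberian sows, IBxDU by Duroc sires and IB by Iberian sires, and no animal received a treatment. The animals of each type came from fewer litters than there were animals, no litter held both types, and the litter of each animal is not given here. Litter and genetic type therefore cannot be told apart, and the tests treat littermates as independent.

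Iberian pigs are a fatty, slow-growing breed, and Duroc sires are used to raise growth and lean yield. Around birth, pig muscle has finished forming its fibres and turns to enlarging them. The size of a fibre follows the balance of protein synthesis and breakdown. Breakdown runs through the proteasome, to which muscle ubiquitin ligases direct proteins, and through the lysosome. Chaperones fold new and damaged proteins in the cytosol and in the endoplasmic reticulum (ER). Genes of the sarcomere, of the nerve contact and of fuel use are switched between fetal and adult programmes at the same time.

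The values are RPKM (reads per kilobase of transcript, relative to the library total), scaled here so that the typical gene is level across the 12 libraries. Levels below are scaled RPKM, and differences are log2 of IB over IBxDU, so a positive value is higher in IB. A gene is said to be past both limits when limma's unadjusted p was at most 0.01 and the fold change at least 1.5. Errors of differences are standard errors from limma, and single genes also carry a two-sided exact permutation p, which cannot go under 0.00216 with 6 animals against 6.

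Depth was 24.6 to 32.4 M counted reads in IB libraries and 20.0 to 34.6 M in IBxDU libraries. The libraries were of 2 kinds. In 5 of them (IB 503 and IBxDU 427, 425, 412 and 402) the genes of the table accounted for 99.3 to 99.5% of all counted reads, and in the remaining 7 for 88.0 to 93.1%. The first kind, called higher-share below, held 1 of 6 IB and 4 of 6 IBxDU newborns, so it is unevenly spread over the types. Single results were therefore also fitted with kind as a term. The muscle markers matched the label, and the actin ACTA1 lay at 23850 to 78690 in IB and 25180 to 53860 in IBxDU. The libraries IB 503 and IBxDU 412 carried transcripts of other tissues, described further on, and the counts of genes past both limits were repeated without them.

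Of 12290 genes tested, 516 were past both limits (4.2%). The 273 genes higher in IB made up 2.22% of those tested and the 243 genes higher in IBxDU 1.98%. On unscaled RPKM the median gene lay at -0.156 and the split was 103 higher in IB and 458 higher in IBxDU, so the counts and signs below are relative to the scaled libraries. The largest fold was 9.62 toward IB and 7.15 toward IBxDU. No gene reached an adjusted p under 0.05 in limma, nor in limma's voom on recovered reads. Without IBxDU 412 alone 254 genes reached it, without IB 323 alone 10, and without both IB 503 and IBxDU 412 519. At an unadjusted p under 0.05 there were 1173 genes higher in IB and 1119 higher in IBxDU, and the genes past both limits had adjusted p values of 0.0739 to 0.172. Every gene named below as higher or lower thus holds at the limits of the study and not after correction over all genes with the 12 libraries. The 2 types did not overlap in 148 genes (1.2%), 83 higher and 65 lower in IB. In every fit without 1 library, in the fit without both IB 503 and IBxDU 412 and in the fit with kind of library as a term, 188 genes stayed past both limits (1.53%), 117 of them higher in IB and 71 higher in IBxDU. These are called stable below. Single libraries moved the counts. The number higher in IB was 177 without IBxDU 425 and 439 without IBxDU 412, and the number higher in IBxDU was 137 without IBxDU 425, 160 without IB 345, 420 without IBxDU 412 and 589 without IB 503. Without IB 503 and IBxDU 412 the counts themselves were larger, at 542 genes higher in IB and 636 higher in IBxDU, of which 450 were among the original 516.

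Of 16 genes in the list of atrophy genes and muscle ubiquitin ligases, 7 were past both limits toward IB and none toward IBxDU, with a median difference of 0.74 against 0.010 over all genes tested. Taken as the mean log2 level of the list centred on the 12 animals, IB newborns ran from -0.026 in 323 to 0.832 in 431, and IBxDU newborns from -0.672 in 429 to -0.079 in 402, so the types did not overlap. The list still had 7 such genes without IB 503 and IBxDU 412, 6 with kind of library as a term and 5 in the lower-share libraries alone. Over all genes the same fits gave 542, 261 and 375 genes higher in IB, against 273 in the main fit.

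The largest difference in the list was that of FBXO32 (atrogin-1), the ubiquitin ligase that marks muscle wasting. FBXO32 lay at 2.05, 8.87 and 30.6 (lowest, median, highest) in IB and at 0.338, 0.932 and 3.02 in IBxDU. Only the lowest IB animal, 323, fell below the highest IBxDU animal, 412. The difference was 2.96 ± 0.57 (exact permutation p = 0.00433) and stable. The paper lists FBXO32 among genes upregulated in IBxDU newborns, which is the reverse direction. In the same passage it reports functions of muscle atrophy as enriched in IB and not in IBxDU newborns. From these it proposes more muscle breakdown in newborn IB. TRIM63 (MuRF1), the ligase that takes apart thick filament proteins, lay at 39.9, 100.2 and 147 in IB and 25.3, 38.1 and 53.5 in IBxDU. Its difference was 1.22 ± 0.31 (exact permutation p = 0.00866), with IB 323 again lowest among IB and the other 5 IB animals above every IBxDU animal. It was not past both limits without scaling or in the lower-share libraries alone.

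FOXO3, the transcription factor that drives both ligases when insulin signalling is low, lay at 6.70, 13.5 and 23.9 in IB and 2.50, 5.04 and 7.72 in IBxDU. The difference was 1.38 ± 0.32 (exact permutation p = 0.00433), and IB 323 alone reached into the IBxDU range. FOXO1, its relative, was not past either limit at 0.36 ± 0.46. CTSL, the lysosomal protease cathepsin L, lay at 1.41, 2.33 and 4.31 in IB and 0.721, 0.943 and 1.91 in IBxDU, a difference of 1.22 ± 0.28 that was stable. ASB5 and ASB11 are muscle substrate adaptors of cullin ubiquitin ligases. ASB5 lay at 43.3, 71.7 and 154 in IB and 12.9, 30.3 and 57.7 in IBxDU (1.49 ± 0.39), with some overlap. ASB11 lay at 15.0, 17.0 and 30.6 in IB and 6.75, 12.1 and 13.7 in IBxDU (0.92 ± 0.24), with none. SESN1, a stress-inducible brake on growth signalling, differed by 1.14 ± 0.34 but stayed past both limits in only 6 of the 12 fits without 1 library. TRIM55 (MuRF2), closely related to TRIM63, did not differ beyond its error (0.12 ± 0.24). Of the 7 genes of the list past both limits, IB 323 was the lowest IB animal in 4 and IB 431 the highest in 4.

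**Figure D1:**
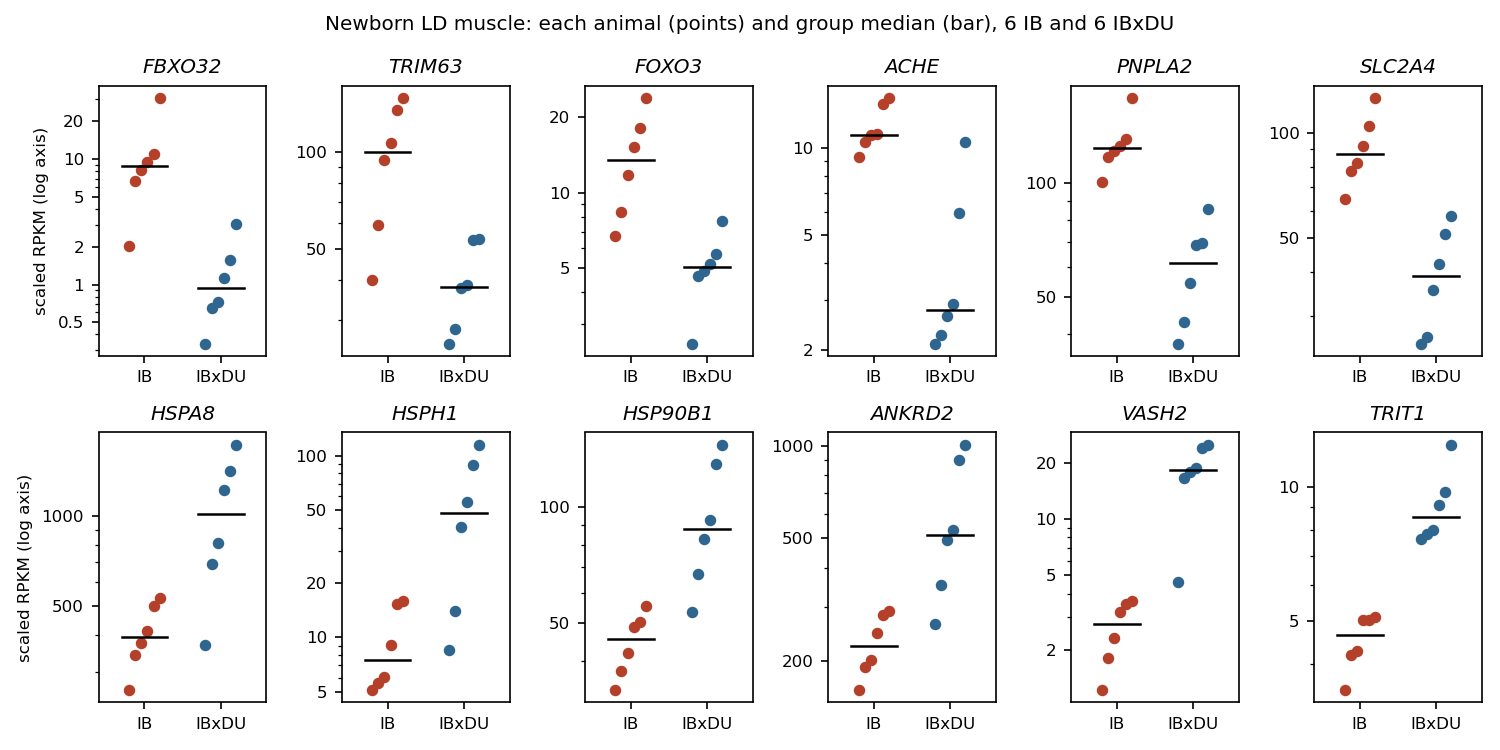
Scaled RPKM on a log axis of 12 genes in each newborn, IB left of IBxDU; each point is 1 animal and the bar is the median of 6. FBXO32, TRIM63, FOXO3, ACHE, PNPLA2 and SLC2A4 sit higher in IB, and HSPA8, HSPH1, HSP90B1, ANKRD2, VASH2 and TRIT1 sit lower in IB; PNPLA2, SLC2A4, VASH2 and TRIT1 do not overlap between the types.

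In the heat shock list 9 of 25 genes were past both limits toward IBxDU and none toward IB, with a median of -0.735 against 0.010 over all genes. In the list of ER chaperones and the unfolded protein response 3 of 25 were past both limits toward IBxDU and none toward IB, with a median of -0.542. In each list 22 of the 25 differences were negative. The heat shock count was 9 with kind of library as a term, 11 without IB 503 and IBxDU 412 and 15 in the lower-share libraries alone. The ER count was 10, 10 and 11 in the same fits. Over all genes the same fits gave 283, 636 and 572 genes higher in IBxDU, against 243 in the main fit.

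The IBxDU newborns were not alike in these genes. The mean heat shock level ran from -0.633 to -0.222 in the 6 IB animals. It was -0.394 in IBxDU 412 and -0.130 in IBxDU 402, against 0.408, 0.456, 0.965 and 1.191 in IBxDU 427, 426, 429 and 425. IBxDU 412 lay within or below the IB range in 8 of the 9 genes and IBxDU 402 in 5 of the 9, while the other 4 IBxDU animals were above every IB animal in 8. Those 4 animals include both kinds of library.

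HSPA8, the constitutive cytosolic HSP70, lay at 261.8, 393.9 and 530.5 in IB and 371, 1019 and 1730.3 in IBxDU, where 412 was lowest and 425 highest. The difference was -1.23 ± 0.33 (exact permutation p = 0.013) and stable. HSPH1 (HSP110), the exchange factor that releases substrates from HSP70, lay at 5.12, 7.53 and 15.9 in IB and 8.55, 48.1 and 115 in IBxDU. It differed by -2.12 ± 0.59 (exact permutation p = 0.0195), and the IBxDU animals spread much more widely than the IB animals. DNAJA1, a J-domain partner that hands substrates to HSP70, lay at 22.3, 28.8 and 45.9 in IB and 35.5, 92.5 and 230.0 in IBxDU. Its difference was -1.55 ± 0.40 (exact permutation p = 0.013), again with 412 lowest and 425 highest among IBxDU. Both were stable.

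Less firm were HSPA2 (-1.79 ± 0.54), HSPD1 (-0.87 ± 0.28), CHORDC1 (-1.03 ± 0.33) and HSPA4 (-0.77 ± 0.26), which stayed past both limits in 4, 4, 3 and 3 of the 12 fits without 1 library. HSPA2 is an HSP70, HSPD1 the mitochondrial chaperonin, CHORDC1 a partner of HSP90 and HSPA4 an exchange factor like HSPH1. The small heat shock protein HSPB1, which guards filaments, is listed under 2 gene IDs with nearly the same range, and reads shared between them make it uncertain. ENSSSCG00000028568 was past both limits (-1.48 ± 0.43), and ENSSSCG00000024482, with medians of 397 in IB and 752 in IBxDU, was not. HSP90AA1, the inducible HSP90, was lower in mean but not past both limits (-0.73 ± 0.30), and neither was the small heat shock protein CRYAB (-1.16 ± 0.44). HSF1, the factor that switches on heat shock genes, was at 19.7, 28.4 and 41.6 in IB and 21.0, 34.1 and 43.5 in IBxDU (-0.13 ± 0.21), with overlap.

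HSPA4L, the remaining member, followed the kind of library. It lay at 4.55 to 8.61 in the 5 higher-share newborns and at 0.116 to 1.16 in the other 7, and at 4 months at 1.67 to 2.16 in the 3 higher-share libraries and 0.225 to 0.722 in the other 9. Its difference between types was -2.58 ± 0.72 and remained past both limits with kind as a term. IB 503, the higher-share IB library, held 5.21 and no other IB animal exceeded 0.446.

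Among ER chaperones HSP90B1 (GRP94) was the clearest, at 33.6, 45.5 and 55.3 in IB and 53.5, 87.8 and 145 in IBxDU. The difference was -1.02 ± 0.23 (exact permutation p = 0.00433) and stable, with only IBxDU 412 inside the IB range. HSPA5 (BiP), the ER HSP70 that senses unfolded protein, lay at 66.8, 84.3 and 114 in IB and 81.0, 191.8 and 285 in IBxDU. It differed by -0.99 ± 0.28, past both limits in 9 of the 12 fits without 1 library. MANF, a small secreted ER stress protein, differed by -0.78 ± 0.24 and held in 5 of 12. CALR, the lectin chaperone calreticulin (-0.58 ± 0.20), and PDIA3, a disulfide isomerase (-0.33 ± 0.15), were not past both limits.

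**Figure D2:**
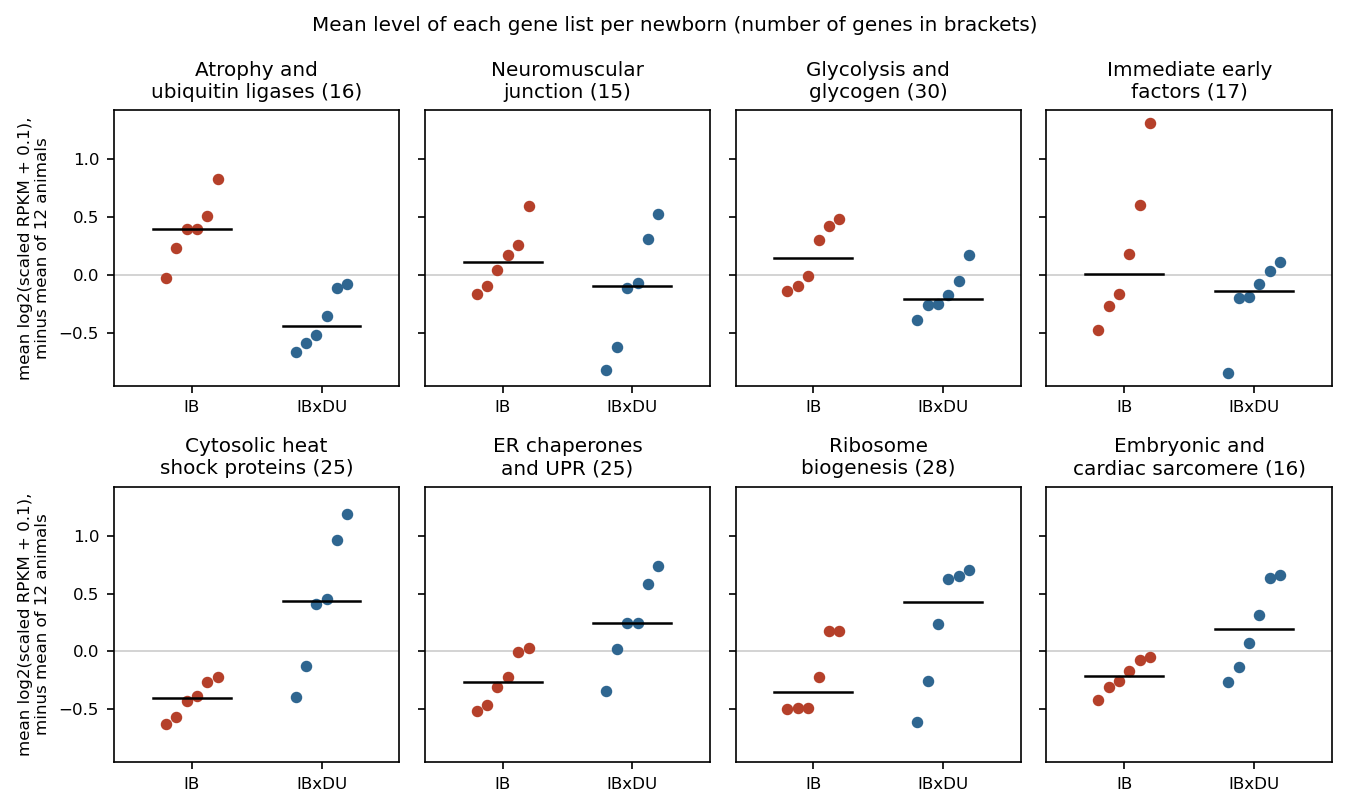
Mean centred log2 level of 8 gene lists in each newborn, IB left of IBxDU, 1 point per animal. The atrophy list separates the types, with IB from -0.026 to 0.832 and IBxDU from -0.672 to -0.079, while in the heat shock list IBxDU 412 and 402 lie at -0.394 and -0.130, under the other 4 IBxDU animals.

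Genes of sarcomere maintenance and of the actin skeleton also differed. In the list of embryonic and cardiac type sarcomere genes 5 of 16 were past both limits toward IBxDU and 1 toward IB, with a median of -0.366. Of the 5, CSRP3, ANKRD2 and XIRP2 are described here. Lists can share genes, so a gene can be counted in more than 1 list. CSRP3 (muscle LIM protein), which ties the Z-disc to stretch sensing, lay at 776, 1237 and 1792 in IB and 1470.0, 2774 and 5186 in IBxDU. Its difference was -1.18 ± 0.33 (exact permutation p = 0.0152) and stable, with IBxDU 402 lowest of its group. ANKRD2, an ankyrin repeat protein induced by stretch, lay at 160.8, 224 and 291 in IB and 263.5, 513 and 1006 in IBxDU, a difference of -1.24 ± 0.30 (exact permutation p = 0.00649) that was stable. Only IBxDU 412 fell within the IB range. XIRP2, which binds actin at the Z-disc, differed by -1.47 ± 0.40 but was not past both limits with kind of library as a term. FLNC, the muscle filamin, had a mean difference of -1.02 ± 0.41 and MYBPH, a myosin binding protein, of -0.68 ± 0.41, neither past both limits.

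ABRA (STARS) was the exception in that list. It binds actin and raises the activity of serum response factor. ABRA lay at 174, 230.3 and 558 in IB and 20.8, 84.0 and 139.5 in IBxDU, with no overlap and a stable difference of 1.90 ± 0.42 (exact permutation p = 0.00216).

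In the list of actin and microtubule dynamics 4 of 27 genes were past both limits toward IBxDU and none toward IB, and its median was -0.071. ENAH, which lengthens actin filaments, lay at 7.33, 9.90 and 12.9 in IB and 13.8, 35.3 and 70.4 in IBxDU (-1.79 ± 0.37). PFN2 (profilin 2), which supplies actin monomers, lay at 20.5, 24.0 and 35.2 in IB and 41.1, 50.8 and 84.4 in IBxDU (-1.07 ± 0.18). VASH2, a tubulin carboxypeptidase, lay at 1.22, 2.75 and 3.65 in IB and 4.60, 18.3 and 24.9 in IBxDU (-2.64 ± 0.39). These 3 were stable and did not overlap between the types, and IBxDU 412 was the lowest IBxDU animal for ENAH and VASH2. MYH10, a non-muscle myosin, differed by -1.77 ± 0.57 but held in only 2 of the 12 fits without 1 library and not with kind as a term. The cytoplasmic actins ACTB (-0.05 ± 0.12) and ACTG1 (-0.16 ± 0.15) were not past either limit.

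Fibre type genes showed no gene past both limits in limma. At an unadjusted p under 0.05, 1 of 9 slow fibre genes and 1 of 11 fast fibre genes were higher in IB, with none past both limits with voom and list medians of -0.067 and 0.31. The fast list varied more among animals than between types, from -0.690 to 1.069 in IB and from -0.713 to 0.845 in IBxDU. It was -0.713 to -0.317 in IB 503, 431 and 504 and IBxDU 427, 425 and 429, and 0.189 to 1.069 in the other newborns. RCAN1, described further on, divided the animals in the same way. TNNC2, the fast troponin C, had a difference of 0.35 ± 0.19, and MYL3, a slow and cardiac myosin light chain, of -0.09 ± 0.29. MYH8, annotated as the perinatal myosin heavy chain, lay at 2539 to 7906 in IB and 2364 to 6089 in IBxDU (0.37 ± 0.33), so the types overlapped. With the libraries of both ages scaled together, its mean was 3501 in IB and 2659 in IBxDU newborns. At 4 months it was 9769 and 8315. This rise with age sits against the name perinatal, so what this gene ID measures is uncertain.

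**Figure D3:**
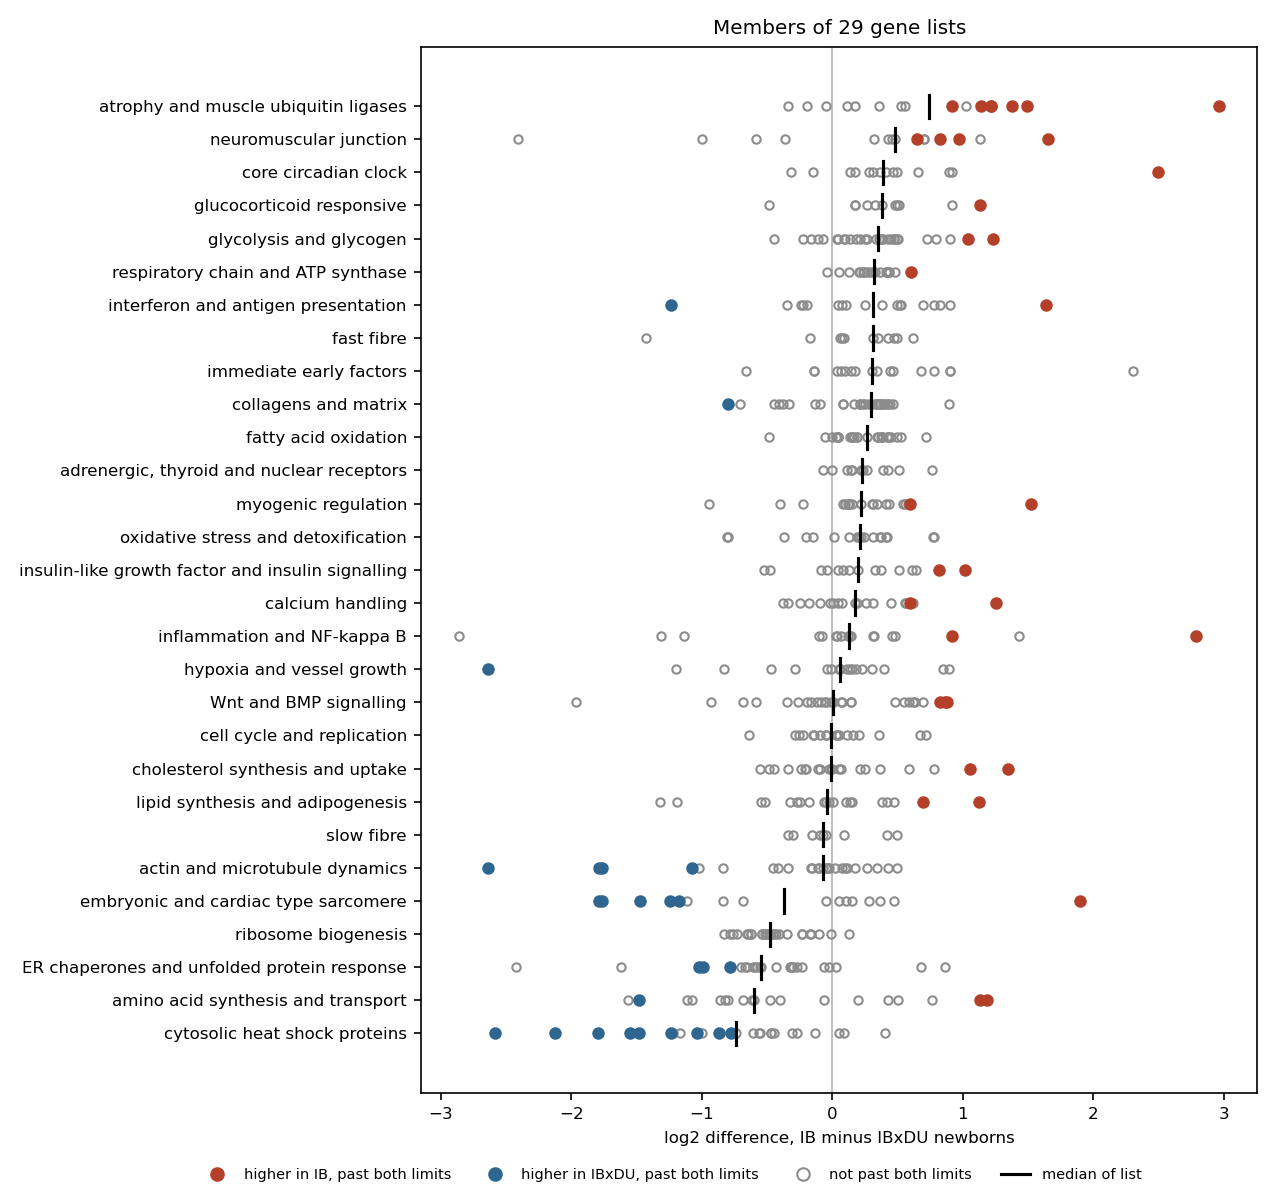
Log2 difference of IB over IBxDU for the tested members of 29 gene lists, 1 point per gene, with the median of each list as a bar. The atrophy list has its median at 0.74 and the heat shock and ER chaperone lists at -0.735 and -0.542, while the median over all genes tested is 0.010.

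Several genes of fuel uptake and storage were higher in IB. SLC2A4 (GLUT4), the insulin-responsive glucose transporter, is listed under 2 gene IDs, and both were stable and higher in IB. ENSSSCG00000017933 lay at 64.8, 86.9 and 126 in IB and 25.0, 39.0 and 57.9 in IBxDU, with no overlap and a difference of 1.23 ± 0.23 (exact permutation p = 0.00216). The other, ENSSSCG00000023915, differed by 1.04 ± 0.25. How reads shared by the 2 IDs were counted is not given in the sources used here. These were the only genes of the 30 in the glycolysis and glycogen list past both limits, though 25 of the 30 differences were positive and the median was 0.348. GAPDH (0.25 ± 0.24), ENO3 (0.48 ± 0.30) and PGAM2 (0.43 ± 0.27), 3 glycolytic enzymes, were not past both limits.

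PNPLA2 (adipose triglyceride lipase), which opens the breakdown of stored fat, lay at 100.8, 123.6 and 168 in IB and 37.7, 61.7 and 85.7 in IBxDU. The types did not overlap, and the difference of 1.13 ± 0.20 (exact permutation p = 0.00216) was stable. PLIN4, a lipid droplet coat protein, differed by 0.70 ± 0.23 but held in only 3 of the 12 fits without 1 library. The list of lipid synthesis and adipogenesis held these 2 of 20 past both limits and had a median of -0.037. Its lipogenic enzymes SCD and FASN were not past both limits, and in both IB 323 stood far above the other IB animals. SCD, the stearoyl-CoA desaturase, was at 145 in IB 323 and 1.09 to 11.1 in the other IB animals, against 2.77 to 15.4 in IBxDU. FASN, the fatty acid synthase, was likewise highest in IB 323, at 53.9 against 14.3 in the next IB animal, and reached 29.9 in IBxDU. The adipocyte markers summed to 63.5 in IB 323 and 12.1 to 22.3 in the other 5 IB animals, against 11.9 to 54.3 in IBxDU; their part in these values was not tested. In bulk muscle, fewer cells of a type and less RNA per cell cannot be told apart.

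In the list of amino acid synthesis and transport 2 of 19 genes were past both limits toward IB and 1 toward IBxDU, while 13 of the 19 differences were negative and the median was -0.602. Without IB 503 and IBxDU 412, 2 of the 19 were past both limits toward IB and 4 toward IBxDU, and with kind of library as a term 2 were toward IB and none toward IBxDU. Over all genes the first fit gave 542 toward IB and 636 toward IBxDU, and the second 261 and 283. GLUL (glutamine synthetase), which muscle induces under glucocorticoids, lay at 201.6, 504 and 843 in IB and 106, 224 and 314 in IBxDU. Its difference was 1.13 ± 0.34 (exact permutation p = 0.0195) and held in 6 of the 12 fits without 1 library. SLC38A3, a glutamine and histidine transporter, lay at 14.3, 19.1 and 26.9 in IB and 4.28, 10.1 and 13.1 in IBxDU, with no overlap and a stable difference of 1.19 ± 0.28. SLC38A1, another glutamine transporter, differed the other way by -1.48 ± 0.49, but it followed the kind of library (1.83 to 4.29 in higher-share newborns and 0.345 to 1.82 in the others) and was not past both limits with kind as a term. FDFT1 (squalene synthase) lay at 22.5, 31.7 and 42.0 in IB and 8.82, 15.1 and 28.9 in IBxDU (1.06 ± 0.26). ABCA1, the exporter of cholesterol, lay at 0.617, 1.14 and 2.47 in IB and 0.236, 0.390 and 0.654 in IBxDU (1.34 ± 0.31). Both were stable, and they were the only 2 of 21 genes of cholesterol synthesis and uptake past both limits. FDPS, the enzyme just before FDFT1, had a difference of -0.01 ± 0.42.

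GHR, the growth hormone receptor, lay at 18.8, 20.4 and 26.1 in IB and 8.52, 11.1 and 22.2 in IBxDU, a difference of 0.82 ± 0.23 (exact permutation p = 0.013). It was stable except that it fell short of the limits without scaling. IRS1, the adaptor of the insulin receptor, differed by 1.02 ± 0.31 and held in 5 of the 12 fits without 1 library. They were the 2 genes past both limits among 15 of insulin-like growth factor and insulin signalling. Of the respiratory chain, 19 of 20 genes had positive differences with a median of 0.319, and SDHC, an anchor of succinate dehydrogenase, was the 1 past both limits (0.60 ± 0.18), though not with kind as a term. Of 27 genes of fatty acid oxidation 25 had positive differences, with a median of 0.268. None was past both limits in limma or voom, and 2 were higher in IB at an unadjusted p under 0.05.

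At the nerve contact, 4 of 15 genes were past both limits toward IB and none toward IBxDU, with a median of 0.484. ACHE, the acetylcholinesterase that clears the transmitter, lay at 9.36, 11.1 and 14.9 in IB and 2.11, 2.77 and 10.5 in IBxDU. The difference was 1.66 ± 0.34 (exact permutation p = 0.00433) and stable, and IBxDU 412 alone reached the IB range. LRP4, the muscle receptor of agrin, lay at 2.61, 4.98 and 9.95 in IB and 2.06, 2.56 and 3.53 in IBxDU (0.97 ± 0.26). ERBB2, a receptor of neuregulin signals, differed by 0.83 ± 0.22, and CHRNE, the adult acetylcholine receptor subunit, by 0.65 ± 0.19. LRP4 and ERBB2 were not past both limits with kind of library as a term, and CHRNE was not without IB 503 and IBxDU 412. CHRNB1, the beta subunit, had a difference of -0.36 ± 0.20, not past both limits.

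PLCD1, a calcium-activated phospholipase, lay at 14.7, 19.5 and 24.2 in IB and 5.53, 7.30 and 12.01 in IBxDU. It did not overlap and had one of the smallest adjusted p values (limma, 0.0739), with a stable difference of 1.25 ± 0.20. HRC, a calcium-binding protein of the sarcoplasmic reticulum, differed by 0.60 ± 0.19 and held in 6 of the 12 fits without 1 library. ATP2A1, the fast calcium pump (0.62 ± 0.33), and SLN, its small inhibitor (0.01 ± 0.25), were not past both limits.

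Among regulators of the muscle programme NFATC1, the calcium-responsive factor of slow fibres, is also listed under 2 IDs. ENSSSCG00000029557 lay at 1.49, 3.15 and 3.81 in IB and 0.469, 0.770 and 1.56 in IBxDU (1.53 ± 0.31, stable). ENSSSCG00000004856 had a difference of 0.10 ± 0.51, but it followed the kind of library. In the higher-share newborns it stood at 17.5 in IB 503 and 11.7 to 13.3 in the 4 IBxDU animals, and in the lower-share ones at 3.32 to 10.4 in IB and 2.54 to 2.75 in IBxDU. With kind as a term it was past both limits toward IB (1.03 ± 0.32). FHL3, a LIM protein that binds actin and transcription factors, lay at 232.7, 320.4 and 552 in IB and 115.8, 165.6 and 207 in IBxDU (1.13 ± 0.21). VGLL2, a cofactor of TEAD factors in muscle, lay at 60.1, 74.9 and 118 in IB and 19.5, 41.0 and 53.5 in IBxDU (1.12 ± 0.26). Both were stable without overlap between the types. MEF2D, a partner of MyoD, did not overlap either (40.6 to 64.9 in IB and 26.0 to 38.5 in IBxDU), yet its difference of 0.58 ± 0.15 fell just short of 1.5-fold. MYOD1 (0.30 ± 0.24), MEF2C (0.12 ± 0.17) and MYF6 (0.31 ± 0.53) were not past either limit.

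Of 14 clock genes only CIART, a repressor of the clock, was past both limits. It stood at 33.3, 28.5 and 26.6 in IB 503, 431 and 504 and at 2.85, 2.69 and 1.83 in the other 3 IB animals, against 0.855 to 1.99 in IBxDU. The difference of 2.50 ± 0.71 was not past both limits without IB 503 and IBxDU 412. The same 3 IB animals were above the other 3 in RCAN1, FOXO1 and PER1, which were chosen for this after their values were seen. RCAN1, a calcineurin inhibitor induced by calcium signals, stood at 270.0 to 385 in them and 41.3 to 45.4 in the others, and in IBxDU at 224 to 526 in 427, 425 and 429 and 45.9 to 85.1 in 412, 402 and 426, with a difference between types of -0.22 ± 0.75. MYL1, a myosin light chain, divided all newborns in the same way, at 6235 to 8154 and 11490 to 19030. So did VEGFA, at 67.1 to 151 and 34.1 to 65.8. This division is even over the types and follows the order of the newborn columns as deposited. It was not a term in any fit, and its source was not tested. FOXO1 stood at 17.2 to 32.2 in IB 503, 431 and 504 and at 5.41 to 7.92 in the other IB animals, against 6.22 to 19.4 over the IBxDU animals. PER1, a core clock repressor that also responds to glucocorticoids, stood at 85.7 to 129 in IB 503, 431 and 504 and 37.1 to 48.2 in the other IB animals, against 24.4 to 46.2 in IBxDU (0.92 ± 0.32, short of the limit on p). The sampling hour of each animal is not given here, so its part was not tested. Immediate early factors were not past both limits in limma or voom, and 3 were higher and 1 lower in IB at an unadjusted p under 0.05. FOS stood at 557 in IB 431 and at 27.5 to 70.2 in the other IB animals, against 15.8 to 50.7 in IBxDU, so a high mean in IB came from 1 animal. IB 431 also had the highest IB level of FBXO32, TRIM63 and FOXO3. Without IB 431 these 3 stayed past both limits.

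Of 28 ribosome biogenesis genes 27 had negative differences and the median was -0.48, but none was past both limits in limma or voom, and 7 were lower in IB at an unadjusted p under 0.05. The mean level of the list overlapped, from -0.497 to 0.179 in IB and from -0.612 in 412 to 0.707 in 426 in IBxDU. Without IB 503 and IBxDU 412, 9 of the 28 were past both limits toward IBxDU, and in the lower-share libraries, with 2 IBxDU animals, 20 were. Over all genes these 2 fits gave 636 and 572 genes higher in IBxDU, against 243 in the main fit. NPM1, a nucleolar histone chaperone, differed by -0.54 ± 0.21 and FBL, the methylase of ribosomal RNA, by -0.45 ± 0.22. Outside that list, SHQ1, an assembly factor of nucleolar RNPs, was lower in IB, at 1.81, 2.07 and 2.44 against 2.58, 4.36 and 5.398 in IBxDU (-0.94 ± 0.19, stable, no overlap).

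Further genes without overlap belonged to none of the lists. RPL14, a protein of the large ribosomal subunit, lay at 556, 645.9 and 776.9 in IB and 231, 308 and 486 in IBxDU (1.03 ± 0.16). Ribosomal protein genes and HSPA8 have near-identical copies in mammalian genomes, and how reads shared with a copy were counted is not given, so both are uncertain on that account. TRIT1, which modifies transfer RNA, lay at 3.49, 4.65 and 5.09 in IB and 7.62, 8.54 and 12.4 in IBxDU (-0.99 ± 0.15). UCHL3, a deubiquitinating hydrolase, lay at 17.0, 29.1 and 34.3 in IB and 42.8, 48.5 and 59.2 in IBxDU (-0.92 ± 0.17). RFX1, a winged-helix transcription factor, lay at 6.68, 7.79 and 9.03 in IB and 3.32, 4.23 and 5.51 in IBxDU (0.85 ± 0.14). These 4 were stable, and each also held in the lower-share libraries alone and without scaling. TNFRSF11B (osteoprotegerin), the decoy receptor that blocks osteoclast formation, lay at 1.03, 2.34 and 4.93 in IB and 0.0556, 0.404 and 0.674 in IBxDU (2.79 ± 0.49, stable). Its lowest IB value was that of IB 503, the library with bone transcripts.

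Signalling and immune lists held the genes past both limits given here, beside 4.2% of all genes tested (2.22% toward IB and 1.98% toward IBxDU). The inflammation list had 2 of 18, both toward IB. In Wnt and BMP signalling 3 of 28 were higher in IB, the Wnt receptor FZD4 (0.82 ± 0.19, stable), the ligand BMP2 (0.86 ± 0.26) and the activin and myostatin receptor ACVR2B (0.88 ± 0.25). BMP2 and ACVR2B were not past both limits with kind of library as a term or without scaling. In the interferon and antigen presentation list OAS1, an antiviral sensor of double-stranded RNA, was higher in IB (9.43, 15.2 and 27.9, against 1.95, 3.40 and 18.7 in IBxDU; 1.64 ± 0.48). TAP2, a subunit of the peptide transporter for antigen presentation, was lower in IB (0.686, 1.07 and 1.99, against 1.32, 3.67 and 5.36 in IBxDU; -1.24 ± 0.36). They held in 7 and 8 of the 12 fits without 1 library. IL6R, the interleukin 6 receptor, differed by 0.92 ± 0.28 but not with kind as a term. Among 18 cell cycle genes, 12 adrenergic, thyroid and nuclear receptors and 18 genes of oxidative stress none was past both limits in limma or voom, and 0, 1 and 3 were higher and 1, 0 and 1 lower in IB at an unadjusted p under 0.05. The collagens and matrix list had 1 of 33, P4HA2, a prolyl hydroxylase of collagen (-0.80 ± 0.21, stable).

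Many genes followed the kind of library. In the newborns, 852 of the genes tested were higher in each of the 5 higher-share libraries than in any of the other 7, and 48 were lower. Among the 516 genes past both limits 45 were of the first sort and 1 of the second. All 45 were among the 243 genes higher in IBxDU, to be set beside 852 of all 12290 genes tested. The extreme cases were not past both limits. NFKB1, a subunit of NF-kappa B, lay at 247 to 344 in the 5 higher-share newborns and 5.49 to 7.51 in the 7 others, and at 4 months at 265 to 307 in 3 libraries and 4.34 to 6.30 in 9. ERBB3, a neuregulin receptor, lay at 44.0 to 66.6 and 1.09 to 2.16 in the same newborns and at 43.6 to 54.3 and 0.0993 to 0.562 at 4 months. The difference of -2.86 ± 1.26 for NFKB1 between types was -0.14 ± 0.15 with kind as a term. Within the higher-share newborns NFKB1 stood at 254 in IB and 247 to 344 in IBxDU, and within the lower-share ones at 5.49 to 7.14 in IB and 5.84 to 7.51 in IBxDU.

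**Figure D4:**
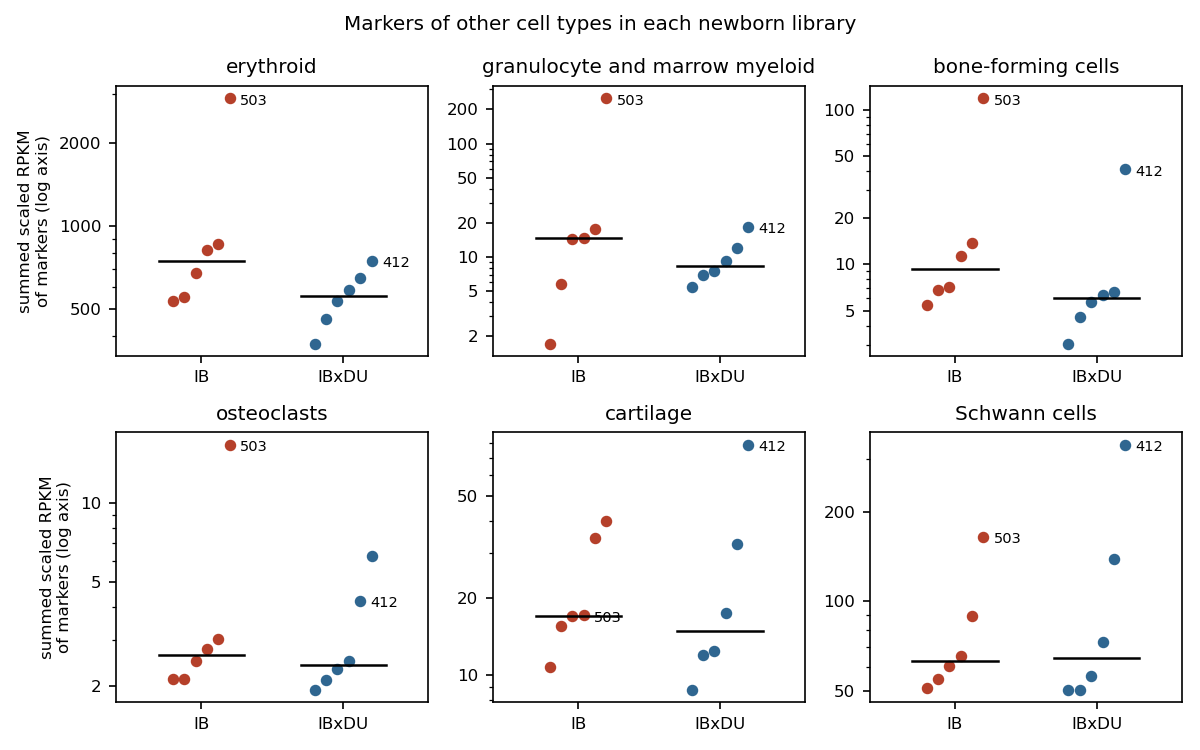
Summed scaled RPKM of marker genes of 6 other cell types in each newborn, on a log axis, IB left of IBxDU, with animals 503 and 412 marked. IB 503 stands at 2906 for erythroid and 118.7 for bone markers, above the other IB animals at 533 to 862 and 5.47 to 13.6.

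Marrow, bone and cartilage transcripts were highest in IB 503 or IBxDU 412. The erythroid markers of IB 503 summed to 2906 and those of the other IB animals to 533 to 862, against 374 to 749 in IBxDU. Its marrow myeloid markers summed to 250.9, against at most 17.6 in another IB animal and at most 18.3 in IBxDU. SLC4A1, the red cell anion exchanger, was at 11.96 there and at most 0.361 elsewhere in IB, and MPO, the peroxidase of neutrophils, at 8.59 and at most 0.207. The bone markers stood at 118.7 in IB 503 and 41.0 in IBxDU 412, and BGLAP, the bone matrix protein osteocalcin, was at 43.8 in IB 503 with the next IB animal at 1.51. The cartilage markers of IBxDU 412 summed to 78.96, above the range of 10.7 to 39.8 in IB and of 8.72 to 32.3 in the other IBxDU animals. COL9A1, a cartilage collagen, was at 8.18 and MATN1, a cartilage matrilin, at 3.03 in IBxDU 412, and at most 0.124 and 0.0286 in the other IBxDU animals. Adipocyte markers had another order, with sums of 63.55 in IB 323, 54.3 in IBxDU 425 and 44.9 in IBxDU 412, and 11.9 to 24.1 in the other newborns.

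Several genes of those tissues that the study had named for this age followed these libraries, and others did not. MMP9, the gelatinase of osteoclasts and neutrophils, stood at 13.5 in IB 503 and at most 0.467 in another IB animal, with 1.16 the highest IBxDU value. KLF1, the erythroid master factor, was at 3.37 in IB 503 and at most 0.0508 in another IB animal, with 0.085 the highest IBxDU value. The paper's discussion gives KLF1 and MMP9 as upregulated in IBxDU newborns, the reverse of these values. Apart from rounding, the fold printed there for KLF1 is the largest that the paper's results report for newborn genes higher in IB. COL9A2 was at 9.39 and MATN3 at 3.05 in IBxDU 412, and COL9A2 reached at most 0.518 in the other IBxDU animals. PVALB, the fast fibre calcium buffer and not a gene of those tissues, stood at 22.2 in IBxDU 402 and at most 2.15 in another IBxDU animal. None of these was past both limits, and their differences changed with 1 library. GDF5, a cartilage marker that the paper also names, did not follow IBxDU 412. It stood at 0.162 there and at 1.279, 4.505 and 1.754 in IBxDU 427, 425 and 429. ELANE, a marrow myeloid marker, stood at 9.815 in IB 503 but also at 1.75 to 2.19 in IBxDU 427, 425, 412 and 402. Over the marker lists 3 genes were past both limits: TFRC, the transferrin receptor (-1.61 ± 0.51), CSF1R, the growth factor receptor of macrophages (0.92 ± 0.24), and CNN1, the smooth muscle calponin (-1.37 ± 0.29). TFRC held in only 3 of the 12 fits without 1 library, while CSF1R and CNN1 were stable. The 3 other macrophage markers in the table summed to 19.6, 36.8 and 57.4 in IB and 10.8, 20.0 and 49.2 in IBxDU, where 412 was highest and the next animal stood at 21.6, and the part of macrophage content in the CSF1R difference was not tested.

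The 4-month animals give each gene's difference at a second age, in other pigs. The 24 libraries were scaled together for this, so levels here are on a different scale from those above. Of the 516 genes, 509 had a smaller difference at 4 months than at birth. For the genes higher in newborn IB the median was 0.844 at birth and 0.021 at 4 months, and for those lower in newborn IB -0.884 and -0.058. Since the genes were chosen for their newborn difference, a smaller one in other animals follows in part from the choice. A difference of at least 1.5-fold in the same direction was found at 4 months for 36 genes, 12 higher and 24 lower in IB, and in the other direction for 9. The share of all tested genes with such a difference at 4 months is not given here. Among the 24, HSPA4L, GIPC2, ZNF133, ENSSSCG00000004313, ENSSSCG00000014873, ENSSSCG00000027162 and ENSSSCG00000029078 were higher in every higher-share newborn than in any other newborn. At 4 months, too, more IBxDU than IB libraries were of the higher-share kind. The part of library kind in the repeated direction of such genes was not tested.

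Of the 7 atrophy genes past both limits in newborns, 6 were under 1.5-fold at 4 months and ASB5 was the exception (-0.18 to 0.78 over the 7). Of the 9 heat shock genes 8 were, and HSPA4L was the exception (-0.69 to 0.24 over the 9). FBXO32 lay at 9.46, 12.9 and 18.7 in IB and 3.61, 10.7 and 39.2 in IBxDU at 4 months, a difference of 0.14 ± 0.53, where the newborns on the same scale lay at 1.54, 6.67 and 22.8 in IB and 0.248, 0.690 and 2.26 in IBxDU. HSPA8 lay at 691, 1070.0 and 1261 in IB and 729.9, 840.0 and 962.5 in IBxDU at 4 months (0.24 ± 0.26). The interaction of type with age was 2.79 ± 0.74 for FBXO32 and -1.46 ± 0.37 for HSPA8, with limma adjusted p values of 0.116 and 0.111, so a change with age was not shown for either.

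Some genes kept their direction. VASH2 at 4 months lay at 0.721, 1.62 and 2.17 in IB and 2.17, 2.82 and 7.12 in IBxDU (-1.05 ± 0.36). TAP2 lay at 1.62, 2.02 and 2.56 in IB and 2.45, 4.69 and 6.99 in IBxDU (-1.12 ± 0.30), and OAS1 at 6.44, 9.79 and 17.0 in IB and 0.740, 4.42 and 11.9 in IBxDU (1.22 ± 0.51). ASB5 was 0.78 ± 0.33 and the ephrin receptor EPHB2 -1.05 ± 0.26. These genes thus had 1.5-fold differences of the same sign in both sets of animals.

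**Figure D5:**
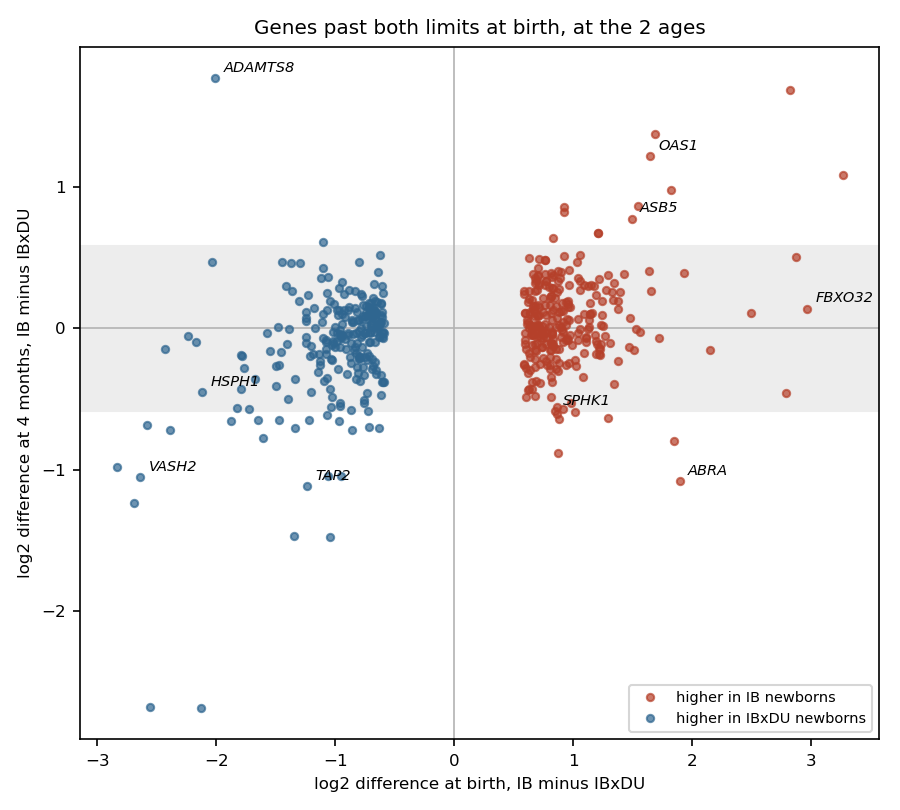
Log2 difference of IB over IBxDU in newborns (horizontal axis) and at 4 months (vertical axis) for the 516 genes past both limits in newborns, 1 point per gene; the grey band holds genes under 1.5-fold at 4 months. Most points lie in the band, VASH2, TAP2, OAS1 and ASB5 lie outside it on the side of their newborn difference, and ABRA and ADAMTS8 lie on the opposite side.

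In 3 of 12441 genes the difference between types itself differed between ages at an adjusted p under 0.05 in limma, each at 0.0453. ABRA had newborn levels on the joint scale of 132, 171.5 and 417 in IB and 15.5, 62.4 and 103 in IBxDU. At 4 months it lay at 74.6, 106.7 and 164 in IB and 101.5, 232 and 440.4 in IBxDU, so the type with the higher median changed and the interaction was 2.99 ± 0.54. SPHK1, the kinase that makes sphingosine 1-phosphate, had an interaction of 1.42 ± 0.25, with 1.196, 1.66 and 2.16 in IB and 0.630, 0.923 and 1.11 in IBxDU newborns, and 0.602, 0.776 and 1.04 in IB and 0.941, 1.23 and 1.61 in IBxDU at 4 months. The gene ENSSSCG00000016982, which the table of gene names does not annotate, had an interaction of -1.02 ± 0.18. It was lower in newborn IB without overlap (31.6 to 49.0, and 54.1 to 98.2 in IBxDU) and near level at 4 months (0.15 ± 0.13). These calls were fragile. No gene passed this limit in 19 of the 24 fits without 1 library, nor without scaling, and 6, 5 and 189 genes did without newborn IB 323, newborn IB 330 and newborn IBxDU 412. ADAMTS8, a secreted metalloprotease, showed the widest opposite pair of differences among genes with a symbol, -2.01 ± 0.59 in newborns and 1.77 ± 0.53 at 4 months, with an interaction adjusted p of 0.0861.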

How the data were processed

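Polyadenylated RNA of LD muscle was sequenced in paired ends, and the authors used CLC Genomics Workbench to align reads against the Sscrofa10.2 build. The deposited table gives RPKM per gene and library for 22861 genes (the paper's text writes FPKM), and its header names every column. Depth was recovered from the steps of the low RPKM values, which gave whole reads within 0.001 for 100% of 17846 genes above 0. The total counts reads or read pairs.

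Newborn libraries were brought to 1 level with a trimmed mean of log ratios (0.3 trimmed at each end, factors 0.835 to 1.30). Genes with a group mean over 0.5 RPKM were tested on log2(scaled RPKM + 0.1) with limma 3.58.1 in R 4.3.3 (lmFit, eBayes with trend, Benjamini-Hochberg adjustment). A fold on this scale understates the change of low genes. The fit of age used all 24 libraries, scaled together. The fits were also run on simulated data with independent noise for each gene. The simulation held no effect of library kind, animal or litter, so it cannot tell how the fits handle those. Symbols came from a table of gene names (11450 IDs) and the paper's tables (414 more).

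Members and lists were chosen with earlier results of these data known. Genes named were drawn from those with the largest folds or smallest p among genes without overlap. Further sources were the list members past both limits with the most abundant others, and the genes the paper names for birth. The last source was genes that differ at both ages or in the interaction. Not every gene that met these rules is described. Marker genes and CSF1R and CNN1 were named after their values were seen. No sequence is shown, since no table of sequences was used.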

Additional observations from a re-analysis of the deposited data

Results flagged for a closer look

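In all, 10 values stood apart from the other 5 animals of their type by Dixon's test at the 95% level, out of 194 sets of 6 animals examined, where chance alone gives about 9.7. In IB 503, HSPA4L stood at 5.21 (0.116 to 0.446 in the other IB animals), the erythroid markers at 2906 (533 to 862), the bone markers at 118.7 (5.47 to 13.6) and the osteoclast markers at 16.7 (2.11 to 3.01). In IB 330, UBTD1, a ubiquitin domain protein, stood at 40.8 (23.1 to 28.6), and in IB 323 the adipocyte markers at 63.5 (12.1 to 22.3). Among IBxDU animals, VASH2 stood at 4.60 in 412 (16.6 to 24.9 in the others), the bone markers at 41.0 in 412 (3.06 to 6.62), CLCA2 at 3.59 in 402 (1.37 to 1.63) and CH242-138G12.1 at 0.032 in 429 (1.17 to 4.73).

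The difference between types changed with age in limma's interaction for ABRA (2.99), SPHK1 (1.42) and ENSSSCG00000016982 (-1.02), each at an adjusted p of 0.0453.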

How the results depend on the processing

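The naming rules picked 117 genes past both limits, not all of them described above. Every one of the 117 kept its direction in all 24 alternative settings, and 50 of them stayed past both limits in each. With kind of library as a term 90 of the 117 did, in the lower-share libraries alone 80, and without scaling 93. The count of genes higher in IB was 103 without scaling, 542 without both IB 503 and IBxDU 412, and 0 at an adjusted p under 0.05. The count higher in IBxDU was 458 without scaling, 572 in the lower-share libraries alone, 636 without both and 0 at an adjusted p under 0.05. Leaving out 1 library gave 177 to 439 genes higher in IB and 137 to 589 higher in IBxDU, and 0 to 189 genes for the interaction, which also fell to 0 without scaling. An adjusted p under 0.05 was reached by 3 genes without scaling, 6 with quantile normalization, 131 in the lower-share libraries, 351 in the fit of 4 groups, 519 without both libraries, 254 without IBxDU 412 alone and 10 without IB 323 alone, and the cause was not tested. Of 29 list medians 5 moved by over 1 SD in some alternative. No paired analysis was possible because the animal numbers are not shared between the types. Genetic type, litter and sire cannot be told apart here, depth limits genes near 0.5 RPKM, and the kind of library is spread unevenly, so the lower-share fit holds 5 IB and 2 IBxDU animals. The division of the newborns seen in RCAN1 and MYL1 was not a term in any fit.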
